A study of Homo sapiens with 12 samples.

Results

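The genes described here are 10 genes of the NF-kB system, taken by name from the count files: the subunit genes NFKB1, NFKB2 and RELB, the regulators NFKBIA, TNFAIP3 and BCL3, and the target genes BIRC3, TNFAIP2, C3 and CSF1. All 10 were found among 56832 named genes, and all 10 were among the 14549 genes with enough counts to be tested. NF-kB proteins are dimers of the Rel family. In resting cells IkB proteins such as the product of NFKBIA hold them in the cytoplasm; the IKK complex marks IkB for destruction in the canonical pathway, and the kinase NIK drives the processing of the NFKB2 product to p52, the partner of RELB, in the alternative pathway. Several of the target genes encode inhibitors of the same pathway, and in basal-like breast cancer cells NF-kB is known for inflammatory and survival gene expression.

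The cells were MDA-MB-468, a basal-like human breast cancer line, stably carrying pCDH-TRB, a construct encoding the beta thyroid hormone receptor (TRB pool), or pCDH-EV, the empty vector (the EV pool). Both pools were kept for 24 hours without hormone, in medium with charcoal-stripped serum and no phenol red, and then given T3 at 10 nM or the NaOH vehicle for 24 hours. RNA was sequenced from 3 libraries in each of the 4 groups, EV vehicle, EV T3, TRB vehicle and TRB T3, 12 in all. Each construct is represented by 1 stable pool, so TRB against EV compares those pools; which promoter drives the receptor was not stated in the labels. Nothing in the labels says that replicates were grown as separate cultures; p-values then reflect only library-to-library spread, possibly technical.

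Gene counts came to 4241863 to 8904361 per vehicle library and 10323437 to 11955825 per T3 library, and mitochondrial ribosomal RNA made up 0.326% to 2.68% of them with vehicle and 0.0502% to 0.09% with T3. The part of this difference in the T3 results was not tested, apart from a comparison at equal depth. THRB, the receptor gene, averaged 43.4 ± 0.824 CPM with vehicle and 38.5 ± 1.23 CPM with T3 in EV cells, against 140 ± 4.15 CPM and 329 ± 16.7 CPM in TRB cells (SD, n = 3). CPM, the usual unit of sequencing depth-corrected counts, is a gene's share of its library's total count, here with totals scaled by TMM factors. The 10 epithelial markers were KRT5, KRT6B, KRT14, KRT17, EGFR and CDH3, and EPCAM, CDH1, KRT8 and KRT18, which are not particular to basal cells. All 10 passed the filter on low counts. Their summed level was 10400 to 10700 CPM in EV vehicle, 9930 to 10400 CPM in EV T3, 8690 to 8890 CPM in TRB vehicle and 7380 to 7830 CPM in TRB T3 libraries. EGFR alone held 4270 to 5510 CPM of it as group means. With T3 in TRB cells 2 of these 10 markers were higher (CDH3 by 0.41 and CDH1 by 0.34 on the log2 scale) and 5 lower. The 5 were KRT5 (-2.01), KRT6B (-1.92), KRT17 (-1.61), KRT14 (-1.31) and EPCAM (-0.19). The shares over all genes tested were 22.4% higher and 21.9% lower. Of 12 leukocyte markers 5 had no count in any library and 9, those 5 included, had at most 6 counts in each; the summed level of the 12 was 25.8 to 59.2 CPM in the EV and TRB vehicle and EV T3 libraries and 222 to 237 CPM in TRB T3 libraries. In TRB T3 libraries CD14 averaged 186 CPM and CSF1R 38.9 CPM of that sum, and in TRB vehicle libraries 19.6 and 8.2 CPM. The 9 fibroblast markers summed to 16.1 to 23 CPM and the 5 endothelial markers to 3.91 to 6.82 CPM. The part of these shifts in the results was not tested, and in bulk RNA fewer cells of a type and less RNA per cell cannot be told apart.

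NF-kB binds a short DNA element, the kB site. Promoters were taken from RefSeq (GRCh38.p14), where 7 of the 10 members matched by symbol, and the 250 bases before each start were searched on both strands for the NF-kB consensus. The consensus was found for NFKB2, NFKBIA, TNFAIP3 and BIRC3 and was not found in the windows of NFKB1, TNFAIP2 and BCL3; 9.96% of 35114 promoters of the same length held it. The stretches with a match are shown because they let these 4 genes be set against the values below; capitals mark the consensus match, and each is written 5′ to 3′ on the strand of the gene.

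NFKB2 chr10:102395519-102395548 (+): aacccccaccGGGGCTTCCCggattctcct
NFKB2 chr10:102395674-102395703 (+): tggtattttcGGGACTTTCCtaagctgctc
NFKBIA chr14:35404811-35404840 (-): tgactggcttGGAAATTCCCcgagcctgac
TNFAIP3 chr6:137867188-137867217 (+): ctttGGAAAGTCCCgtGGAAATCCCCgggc
BIRC3 chr11:102317275-102317304 (+): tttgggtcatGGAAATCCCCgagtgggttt
BIRC3 chr11:102317339-102317368 (+): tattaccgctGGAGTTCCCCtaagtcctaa

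Starts are those of RefSeq; the NFKB2 and TNFAIP3 stretches lie within the bounds of the GENCODE gene. The window of NFKBIA is printed whole, with its match in capitals, beside that of TNFAIP2, up to 20 bases before its start, which had none and whose gene had the highest level per length of the 10. The core element of thyroid hormone receptors, AGGTCA, was searched in the same windows on both strands; it was found in none of the 7 and in 12.1% of all promoters of this length. A match is a string of letters and not a measured binding site, and no match says only that the letters are not in this window.

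NFKBIA chr14:35404750-35404999 (-): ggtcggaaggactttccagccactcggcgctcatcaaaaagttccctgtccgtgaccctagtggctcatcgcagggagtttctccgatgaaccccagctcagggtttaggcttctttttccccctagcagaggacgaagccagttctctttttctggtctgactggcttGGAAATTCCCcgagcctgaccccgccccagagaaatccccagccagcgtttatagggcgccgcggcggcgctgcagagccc
TNFAIP2 chr14:103123211-103123441 (+): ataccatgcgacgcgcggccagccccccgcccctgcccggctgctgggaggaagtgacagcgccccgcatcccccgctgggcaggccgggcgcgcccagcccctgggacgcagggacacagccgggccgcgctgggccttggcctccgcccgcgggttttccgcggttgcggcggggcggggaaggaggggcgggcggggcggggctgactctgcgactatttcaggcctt

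The 10 genes differed widely in level. Per kilobase of exon (RPKM, from the scaled CPM and GENCODE exon lengths), TNFAIP2 stood at 53.3, BCL3 at 30.8, C3 at 15.7 and NFKBIA at 14.4 in EV vehicle cells. On the same scale NFKB2 was at 9.21, NFKB1 at 8.35, BIRC3 at 7.06, RELB at 5.88, CSF1 at 5.29 and TNFAIP3 at 1.49. In TRB T3 cells TNFAIP2 (95.7) and BCL3 (65) again led, CSF1 (15.9) stood above NFKBIA (14.1) and C3 (11.3), and TNFAIP3 (1.14) was lowest. TNFAIP3 rested on 36 to 75 counts per library, the fewest of the 10, RELB on 77 to 230 and CSF1 on 104 to 1098. The largest SD within a group, relative to its mean, was 19.1% for RELB, 14.5% for NFKBIA and 13.1% for TNFAIP3.

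**Figure D1:**
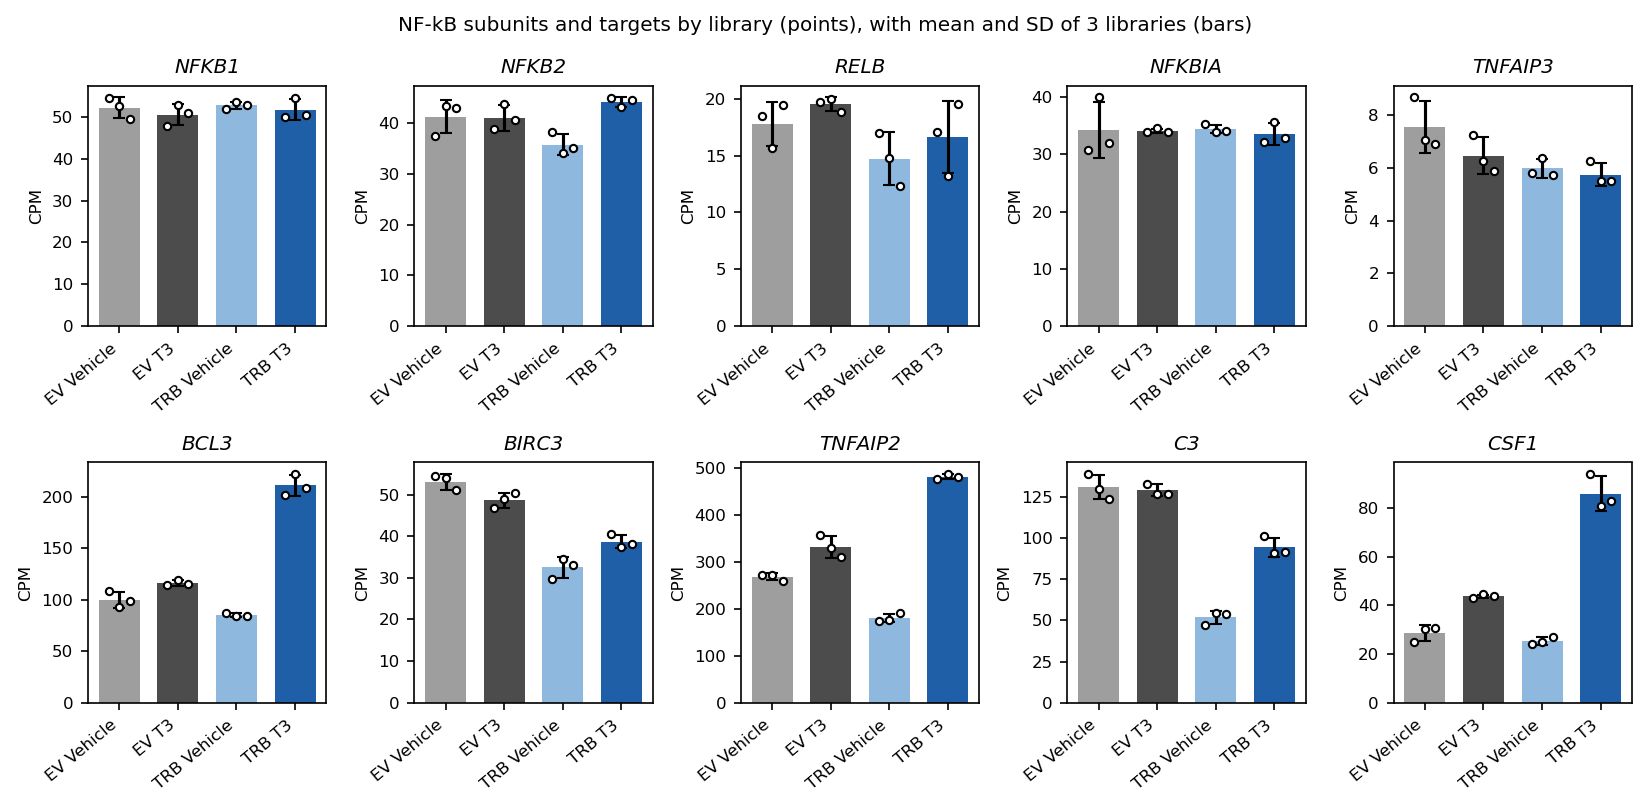
Level of each gene (vertical axes, CPM from 0, each panel with its own scale) in the 4 groups; bars are means of 3 libraries, error bars are SD and points are single libraries. BCL3, TNFAIP2 and CSF1 were highest in TRB T3 libraries, C3 and BIRC3 were lower in every TRB library than in every EV library, and NFKB1 and NFKBIA overlapped in all 4 groups.

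T3 in the TRB pool raised 6 of the 10 genes and lowered none, by edgeR's quasi-likelihood test with adjusted p below 0.05, where 22.4% of all genes tested were called higher and 21.9% lower. DESeq2 also called 6 higher and 0 lower, and 0 were lower at an unadjusted p below 0.05. The 6 were NFKB2, BCL3, BIRC3, TNFAIP2, C3 and CSF1. Their median log2 fold change with the other 4 was 0.28, against 0 over all genes tested. Of the 6, CSF1, TNFAIP2 and BCL3 rose by 2-fold or more, as did 4.02% of all genes tested, C3 by 1.82-fold, and NFKB2 and BIRC3 by 1.24-fold and 1.19-fold. NFKB1, RELB, NFKBIA and TNFAIP3 did not pass.

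Among the subunits, NFKB1 (chromosome 4, 102501329 to 102617302), which encodes the p105 precursor of p50, was level across the experiment. Its libraries stood at 54.4, 52.7 and 49.6 CPM in EV vehicle, 47.8, 52.8 and 51 CPM in EV T3, 51.9, 53.5 and 52.9 CPM in TRB vehicle and 50, 54.6 and 50.5 CPM in TRB T3. All pairs of groups overlapped, and the highest group mean was 1.04 times the lowest. The T3 effect in TRB cells had a log2 fold change of -0.03 with a 95% interval of -0.15 to 0.09 (edgeR adjusted p = 0.713), so a change of the size seen for NFKB2 lies outside that interval.

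NFKB2 (chromosome 10, 102394110 to 102402529), which encodes the p100 precursor of p52, moved slightly. It stood at 38.3, 34.2 and 35.1 CPM in TRB vehicle and 44.9, 43.2 and 44.5 CPM in TRB T3 libraries, without overlap. In EV cells it was at 37.5, 43.4 and 43.1 CPM with vehicle and 38.9, 43.9 and 40.6 CPM with T3, overlapping each other. T3 raised it in TRB cells by 0.31 on the log2 scale (SE 0.0693, edgeR adjusted p = 0.000179); in EV cells the value was -0.02 (0.93).

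RELB (chromosome 19, 45001430 to 45038198), the subunit that pairs with p52, scattered most between libraries of a group among the 3 subunits. TRB T3 libraries stood at 17.1, 13.2 and 19.5 CPM and TRB vehicle libraries at 17, 14.8 and 12.3 CPM, and the EV libraries at 15.7 to 20 CPM. Its T3 effect in TRB cells was 0.17 with a 95% interval of -0.06 to 0.41 on the log2 scale (edgeR adjusted p = 0.229); without TRB T3 replicate 2, the lowest of its 3, it was 0.31 (0.0248). RELB lies 241385 bases from BCL3 on chromosome 19 and BCL3 rose 2.48-fold in the same libraries; the difference between the genes was not tested.

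Among the regulators, NFKBIA (chromosome 14, 35401511 to 35404749), the IkB-alpha gene and itself a classical NF-kB target, stood at 33.8, 34.5 and 33.8 CPM in EV T3, 35.2, 33.8 and 34 CPM in TRB vehicle and 32.1, 35.7 and 32.8 CPM in TRB T3 libraries. EV vehicle libraries were at 30.8, 39.9 and 32 CPM, and all pairs of groups overlapped. The T3 effect in TRB cells was -0.03 with a 95% interval of -0.18 to 0.12 on the log2 scale (edgeR adjusted p = 0.749). TNFAIP3 (chromosome 6, 137867188 to 137883312), which encodes the ubiquitin-editing inhibitor A20, stood at 5.78, 6.38 and 5.74 CPM in TRB vehicle and 6.26, 5.48 and 5.5 CPM in TRB T3 libraries, which overlapped. At its depth the interval was wider, -0.39 to 0.27 (edgeR adjusted p = 0.798). Both genes hold the consensus match shown above, and neither passed the test in any comparison.

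BCL3 (chromosome 19, 44747705 to 44760044) encodes an atypical IkB protein that works in the nucleus with p50 and p52 dimers. Its TRB vehicle libraries stood at 86.9, 84.4 and 83.8 CPM and its TRB T3 libraries at 202, 222 and 208 CPM. EV vehicle libraries stood at 108, 92.8 and 98.2 CPM and EV T3 libraries at 114, 119 and 115 CPM. No 2 groups overlapped, in the order TRB vehicle, EV vehicle, EV T3, TRB T3. T3 raised BCL3 in TRB cells by 1.31 (SE 0.0471, edgeR adjusted p = 4.63e-36) and in EV cells by 0.23 (SE 0.0515, edgeR adjusted p = 0.00233) on the log2 scale. The EV call did not survive leaving out EV vehicle replicate 2 (0.18, edgeR adjusted p = 0.0615). Removing the GC trend ended it too (0.13, edgeR adjusted p = 0.146).

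Among the targets, TNFAIP2 (chromosome 14, 103123442 to 103137439), a TNF-induced gene linked to membrane protrusions, had the most counts. It stood at 173, 176 and 190 CPM in TRB vehicle, 272, 272 and 260 CPM in EV vehicle, 358, 329 and 310 CPM in EV T3 and 477, 487 and 480 CPM in TRB T3 libraries. No 2 groups overlapped, in the same order as for BCL3. T3 raised it by 1.42 in TRB cells (SE 0.0425, edgeR adjusted p = 5.96e-40) and by 0.31 in EV cells (SE 0.0426, edgeR adjusted p = 1.9e-07) on the log2 scale.

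CSF1 (chromosome 1, 109910242 to 109930992), the macrophage colony stimulating factor, had the largest T3 effect of the 10 in both pools. It stood at 24.1, 25.1 and 27.1 CPM in TRB vehicle and 94.1, 81.1 and 82.8 CPM in TRB T3 libraries, a 3.39-fold rise (log2 1.76, SE 0.069, edgeR adjusted p = 6.77e-34). In EV cells it went from 25, 30.4 and 30.6 CPM to 43.2, 44.5 and 43.7 CPM, a 1.5-fold rise (log2 0.59, SE 0.0795, edgeR adjusted p = 1.22e-07). The vehicle groups of both pools overlapped, and the T3 libraries of each pool stood above all vehicle libraries.

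C3 (chromosome 19, 6677704 to 6730562), the central complement protein, had another order. TRB vehicle libraries stood at 47.2, 54.2 and 54.1 CPM, TRB T3 libraries at 101, 90.8 and 91.4 CPM, EV T3 libraries at 133, 127 and 127 CPM and EV vehicle libraries at 139, 130 and 124 CPM. The EV groups overlapped and no other pair did. T3 raised C3 by 0.86 on the log2 scale in TRB cells (SE 0.0572, edgeR adjusted p = 1.58e-21), while in EV cells its value was -0.01 with a 95% interval of -0.11 to 0.09 (0.952).

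BIRC3 (chromosome 11, 102317450 to 102339403), which encodes the ubiquitin ligase cIAP2, had the same order of group means as C3 on a smaller scale. Its libraries stood at 29.8, 34.6 and 33.2 CPM in TRB vehicle, 40.5, 37.5 and 38.1 CPM in TRB T3, 46.7, 49 and 50.3 CPM in EV T3 and 54.4, 54 and 51 CPM in EV vehicle. No 2 groups overlapped, though the EV values did not pass the test (log2 -0.12, edgeR adjusted p = 0.383). The rise in TRB cells was 0.25 on the log2 scale (SE 0.0711, edgeR adjusted p = 0.00292), and at equal depth it was 0.16 and missed the threshold (0.212).

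T3 in the EV pool raised 3 of the 10 genes, BCL3, TNFAIP2 and CSF1, and lowered none, where 2.84% of all genes tested were called higher and 1.7% lower. DESeq2 called 3 higher and 0 lower, and 0 were lower at an unadjusted p below 0.05. By adjusted p CSF1 and TNFAIP2 ranked 38 and 39 among 14549 genes. The median log2 fold change of the 10 was -0.01, against 0 over all genes tested. The other 7 genes lay between -0.19 (TNFAIP3) and 0.12 (RELB). In this pool the T3 libraries were deeper than the vehicle libraries, as in the TRB pool; at equal depth the same number, 3, were called higher.

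**Figure D2:**
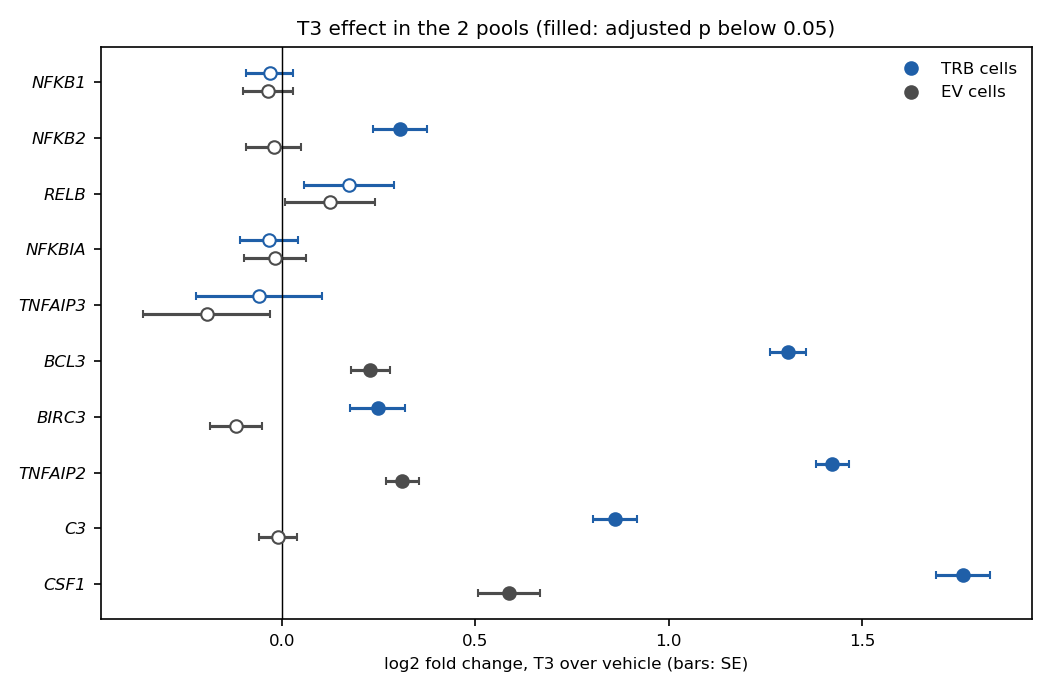
T3 effect on each gene in TRB cells (blue) and EV cells (grey), as log2 fold change of T3 over vehicle on the horizontal axis; error bars are SE and filled points passed the adjusted p of 0.05. CSF1, TNFAIP2 and BCL3 were raised in both pools, by 1.76, 1.42 and 1.31 in TRB cells against 0.59, 0.31 and 0.23 in EV cells.

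The test of the difference between the T3 effects called 6 of the 10 genes more positive in TRB cells and none more negative, where 12.3% of all genes tested were called more positive and 11.6% more negative. DESeq2 called 5 more positive and 0 more negative, and 0 were more negative at an unadjusted p below 0.05. The differences on the log2 scale were 1.17 for CSF1 (SE 0.11, edgeR adjusted p = 3.29e-14), 1.11 for TNFAIP2 (SE 0.0602, 7.86e-25), 1.08 for BCL3 (SE 0.0706, 3.6e-21) and 0.87 for C3 (SE 0.0761, 1.93e-15). BIRC3 differed by 0.37 (0.00267) and NFKB2 by 0.33 (0.0107). The call for BIRC3 was lost at equal depth (0.29, edgeR adjusted p = 0.114) and that for NFKB2 by DESeq2 (0.32, DESeq2 adjusted p = 0.0745). For NFKB1, RELB, NFKBIA and TNFAIP3 the 95% intervals of the difference were -0.17 to 0.18, -0.28 to 0.38, -0.23 to 0.2 and -0.33 to 0.6.

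The pools also differed before T3 was added. With vehicle, 5 of the 10 genes were lower in TRB than in EV libraries and none was higher, where 7.4% of all genes tested were called lower and 7.86% higher. DESeq2 called 4 lower and 0 higher; at an unadjusted p below 0.05, 7 were lower and 0 higher. C3 was at 0.399 times its EV level (log2 -1.32, SE 0.0593, edgeR adjusted p = 8.55e-29), a p-value that was the second smallest of all genes tested, after THRB. BIRC3 (-0.7), TNFAIP2 (-0.58), BCL3 (-0.22) and NFKB2 (-0.22) were also lower. The NFKB2 call was near the threshold (edgeR adjusted p = 0.0387), and its groups overlapped; leaving out TRB vehicle replicates 2 or 3 or EV vehicle replicates 2 or 3 ended it (0.0898 to 0.179), as did DESeq2 (0.143) and no filter on low counts (0.0675). BCL3 missed it without EV vehicle replicate 1 (-0.17, edgeR adjusted p = 0.0532). CSF1 stood at -0.2 (0.143), RELB at -0.28 (0.146) and TNFAIP3 at -0.3 (0.296), and NFKB1 and NFKBIA at 0.03 and 0.

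With T3, CSF1 (0.97), BCL3 (0.86) and TNFAIP2 (0.54) were higher in TRB than in EV libraries and C3 (-0.45) and BIRC3 (-0.33) lower, where 21% of all genes tested were called higher and 19.7% lower. These comparisons share libraries with those above, so the values are given side by side. BCL3 and TNFAIP2 thus lay below the EV pool with vehicle and above it with T3, at 0.859 and 0.671 times the EV level in the former and 1.82 and 1.45 times in the latter. C3 and BIRC3 lay below it with both, at 0.399 and 0.617 times with vehicle and 0.731 and 0.796 times with T3. NFKB2 did not differ with T3 (log2 0.1, edgeR adjusted p = 0.197), but passed with the GC trend removed (0.16, edgeR adjusted p = 0.0294). RELB at -0.23 missed the threshold (0.0635); it passed without TRB T3 replicate 3 (-0.37, edgeR adjusted p = 0.00507) and with no filter on low counts (-0.25, edgeR adjusted p = 0.0455).

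**Figure D3:**
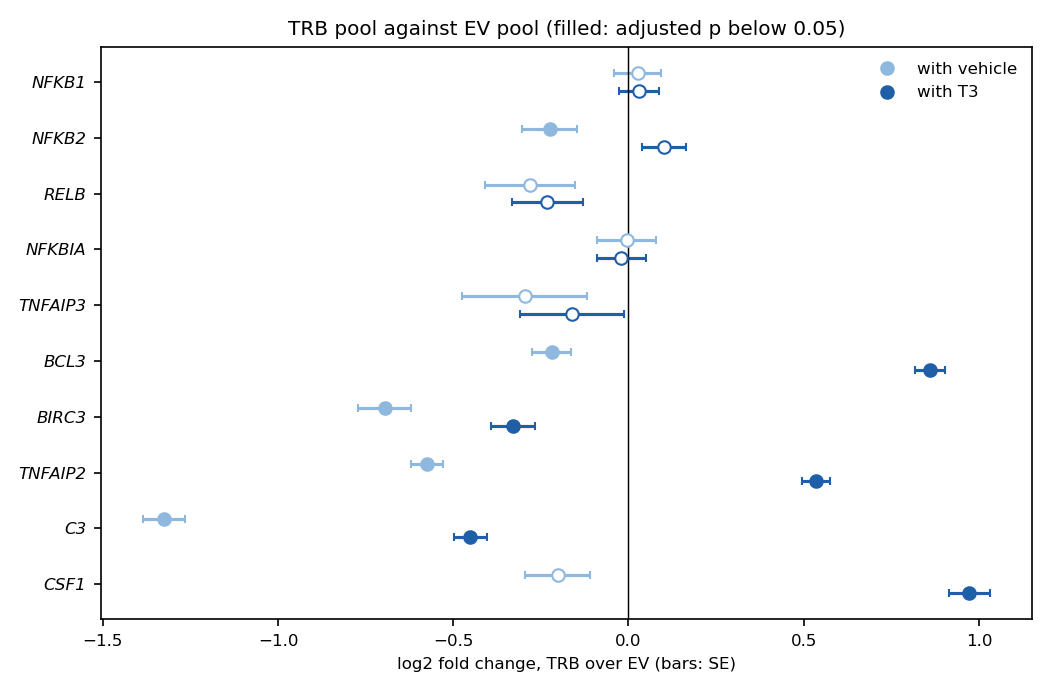
Difference between the pools for each gene, as log2 fold change of TRB over EV on the horizontal axis, with vehicle (light blue) and with T3 (dark blue); error bars are SE and filled points passed the adjusted p of 0.05. TNFAIP2 and BCL3 changed side, from -0.58 to 0.54 and from -0.22 to 0.86, and C3 and BIRC3 stayed below 0.

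The other genes of the pathway were taken from lists by role. Of 6 other subunits and IkB proteins T3 in TRB cells raised none and lowered 2 by edgeR and by DESeq2. By edgeR 22.4% of all genes tested were higher and 21.9% lower. At an unadjusted p below 0.05, 1 of the 6 was higher. NFKBIZ, an atypical IkB gene like BCL3, went from 213, 229 and 239 CPM in TRB vehicle to 135, 132 and 134 CPM in TRB T3 libraries, a fall opposite in direction to BCL3 (log2 -0.76, SE 0.0451, edgeR adjusted p = 5.89e-23). RELA, which encodes the p65 subunit, fell by 0.13 (0.011), and that call was lost without TRB vehicle replicate 3 (-0.11, edgeR adjusted p = 0.058). REL (-0.05, 0.584) and NFKBIB (0.12, 0.0954) did not pass, though NFKBIB passed without TRB T3 replicate 3 (0.18, edgeR adjusted p = 0.0193). In EV cells NFKBIZ also fell, by 0.21, and the fall was larger in TRB cells by 0.55 (edgeR adjusted p = 1.64e-10).

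Among 29 kinases and adaptors upstream of NF-kB, 8 were higher and 4 lower with T3 in TRB cells, and 17 did not pass, where 22.4% of all genes tested were higher and 21.9% lower; the median log2 fold change of the 29 was 0.08. DESeq2 called 6 higher and 0 lower, and at equal depth 8 were higher and 0 lower, so none of the 4 lower calls held there. MAP3K14, the gene of NIK, the kinase of the alternative pathway, went from 12.1, 9.74 and 8.61 CPM in TRB vehicle to 38.8, 34.1 and 37.8 CPM in TRB T3 libraries (log2 1.86, SE 0.104, edgeR adjusted p = 1.52e-24). The TRB T3 libraries stood apart from all others, since EV T3 libraries were at 13.4 ± 1.68 CPM (SD, n = 3). CYLD, a deubiquitinase that restrains the canonical pathway, rose 2.04-fold, from 64 ± 4.07 to 131 ± 1.08 CPM, and stood at 67 ± 2.75 CPM in EV T3 libraries. RBCK1, a part of the linear ubiquitin ligase, and IRAK1, a kinase of the interleukin 1 receptor, rose by 0.26 and 0.22 on the log2 scale. The T3 effects on MAP3K14 and CYLD were more positive in TRB than in EV cells by 1.49 and 0.95 (edgeR adjusted p = 4.05e-10 and 2.13e-16).

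Of 19 receptors and ligands that signal to NF-kB 10 had enough counts, of which T3 in TRB cells raised 7 and lowered 3. Over all genes tested 22.4% were called higher and 21.9% lower. The 3 lower were TNFSF12, which encodes TWEAK (log2 -0.84, edgeR adjusted p = 0.00329), IL1RAP (-0.5, 7.02e-06) and TLR2 (-1.63, 0.0127). TLR2 had 8, 4 and 8 counts in TRB vehicle and 3, 4 and 2 in TRB T3 libraries. It passed the filter only through vehicle libraries, so the filter favoured a lower call. That call was lost by DESeq2 (-1.7, DESeq2 adjusted p = 0.0663) and on leaving out some single libraries. The ligand genes TNF, LTA, LTB, TNFSF11, IL1A and IL1B were not tested, with at most 5 counts in any library. TNFRSF11A, which encodes RANK, rose 2.94-fold, from 25.7 ± 3.13 to 75.3 ± 2.67 CPM, and stood at 36.1 ± 2.87 CPM in EV T3 libraries. LTBR, the lymphotoxin beta receptor, rose 1.5-fold, TNFRSF12A, the receptor of TWEAK, 1.44-fold, and TLR3, a sensor of double-stranded RNA, 2.19-fold. RANK, LTBR and the TWEAK receptor are known to act through NIK. TNFRSF12A was the only 1 of the 10 called in EV cells (log2 0.39, edgeR adjusted p = 4.92e-06). In that pool 2.84% of all genes tested were called higher and 1.7% lower. The T3 effect on TNFRSF12A did not differ between pools (0.13, 0.318), whereas those of TNFRSF11A (1.35), LTBR (0.48) and TLR3 (1.19) did.

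Of 31 other NF-kB targets 18 were tested, and with T3 in TRB cells 8 were higher, 5 lower and 5 not called, with a median log2 fold change of -0.07. Of all genes tested 22.4% were called higher and 21.9% lower. Those not tested included IL6, CXCL2, CXCL3, CXCL10, CCL2, CCL20, VCAM1 and PTGS2, with at most 12 counts in any library. IRF1, an interferon regulatory factor, went from 33.6 ± 1.39 to 134 ± 2.8 CPM, and GADD45B and IER3, stress-induced survival genes, rose 1.74-fold and 1.56-fold. LCN2, which encodes the iron-binding protein lipocalin 2 and is a textbook target of NF-kB together with NFKBIZ, fell from 136 ± 2.84 to 59.7 ± 2.61 CPM (log2 -1.19, SE 0.0503, edgeR adjusted p = 4.94e-32). Targets therefore moved in both directions in the same libraries. In EV cells 3 of the 18 were higher and 1 lower, where 2.84% of all genes tested were called higher and 1.7% lower. IRF1 (0.5) and IER3 (0.27) were among the former and LCN2 (-0.25) was the latter.

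Around C3, 11 of 14 complement genes were tested, and T3 in TRB cells raised 3 and lowered 2, shares near those of all genes tested (22.4% and 21.9%). At equal depth 2 were higher and 1 lower. CFB, complement factor B, rose 2.07-fold at a low level, from 2.65 ± 0.592 to 5.49 ± 0.26 CPM. CD59, which blocks the membrane attack complex, rose 1.29-fold, whereas CD55, which speeds the decay of the C3 convertase, fell from 33.2 ± 1.57 to 15.4 ± 1.11 CPM (log2 -1.1, SE 0.0852, edgeR adjusted p = 2.06e-18). C5 fell by 0.58, a call lost at equal depth (-0.36, edgeR adjusted p = 0.173).

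Around CSF1, 3 of 5 listed genes were tested, namely CSF1R, IL34 and CSF3R. CSF3R, like the untested CSF2RA and CSF3, belongs to other colony stimulating factors and not to the CSF1 system. CSF1R, the receptor of CSF1, went from 7.76, 9.07 and 7.79 CPM in TRB vehicle to 39, 40.2 and 37.5 CPM in TRB T3 libraries (log2 2.23, SE 0.102, edgeR adjusted p = 2.97e-30), and stood at 5.51 ± 0.378 CPM in EV T3 libraries. IL34, the other ligand of CSF1R, stood at 0.344 ± 0.176 CPM in TRB vehicle and 2.31 ± 0.499 CPM in TRB T3 libraries. It had 2 to 4 counts per TRB vehicle library and at most 8 in any library outside TRB T3. IL34 passed the filter only through the TRB T3 group, so the filter favoured a higher call. At equal depth it had too few counts to be tested. CSF3R stood at -0.55 (0.0123), a call lost at equal depth (-0.02), by DESeq2 (-0.56) and without TRB vehicle replicate 3 (-0.33) or TRB T3 replicate 1 (-0.46). CSF1R was also in the leukocyte list. All 3 tested markers of that list, CD14, CSF1R and ITGAM, were called higher with T3 in TRB cells. Of all genes tested 22.4% were called higher and 21.9% lower. ITGAM stood at 0.505 ± 0.133 CPM in TRB vehicle and 2.72 ± 0.435 CPM in TRB T3 libraries (log2 2.4). It had 26, 34 and 33 counts in TRB T3 libraries and at most 7 in any other. It passed the filter only through the TRB T3 group, so the filter favoured a higher call, which is not counted as support. PTPRC, which encodes the leukocyte antigen CD45, had at most 6 counts in any library and was not tested. It had 0, 0 and 1 counts in TRB vehicle and 4, 3 and 4 in TRB T3 libraries.

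**Figure D4:**
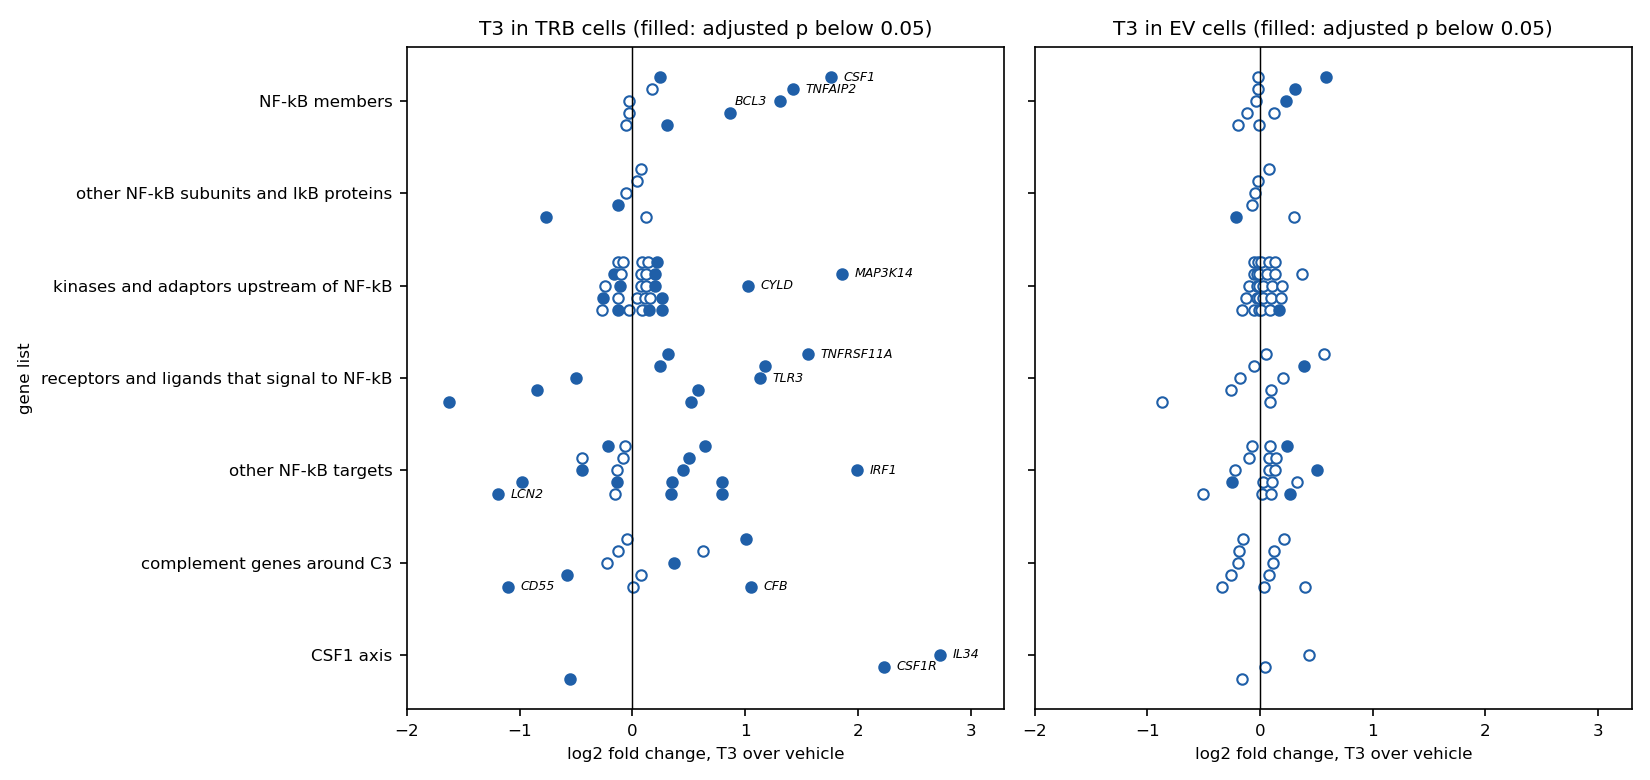
T3 effect on the tested genes of each list (rows; points are genes, set apart vertically only for legibility) in TRB cells, left, and EV cells, right, as log2 fold change on the horizontal axis; filled points passed the adjusted p of 0.05. In TRB cells the filled points lay on both sides of 0 in 5 of the lists, on the positive side only for the 10 members and on the negative side only for the other subunits and IkB proteins.

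For each member called in the difference of the T3 effects, the genes with the most similar pattern were sought among 12304 genes averaging at least 1 CPM, by the root mean square difference of log2 CPM over the 12 libraries after centring. BCL3 was nearest to EPAS1 (0.0668), which encodes the hypoxia factor HIF-2 alpha, and TFRC (0.0671), the transferrin receptor, against a range of 1.4 for BCL3 itself. TNFAIP2 (range 1.5) was nearest to CCND1 (0.0996) and RARRES3 (0.106), and CSF1 (range 1.96) to JPH2 (0.133) and UCP2 (0.149). C3 (range 1.55) was nearest to the cytokine gene LIF (0.103), which went from 12.3 to 19.9 CPM in TRB cells and stood at 29.8 and 28.6 CPM in EV cells, and to IFI44 (0.161). BIRC3 (range 0.861) was nearest to NEFH (0.104) and ETV5 (0.113) and NFKB2 (range 0.392) to YARS (0.0578) and MAP3K9 (0.0636). NEFH itself was not called in the difference of the T3 effects, at 22.1 CPM in TRB vehicle and 22.7 CPM in TRB T3 libraries. These distances are descriptions over libraries that share depth and handling.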

How the data were processed

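Per the labels' protocols, MDA-MB-468 RNA was turned into libraries with NEBNext Ultra II RNA reagents; CASAVA 1.7, STAR 2.7, HTSeq 0.10, DESeq2 and the build hg38 appear in the submitters' processing notes. Whether counting used strand was not stated there; 1.88% of TNFAIP3 exon bases overlap an antisense gene. Unnormalized counts for each gene were deposited, and the authors also deposited a table of rounded normalized values, treated as a score, which matched the counts divided by 1 factor per library to within 1 and served only as a check. Lines naming no gene held 31.87% to 39.24% of alignments and were left out.

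Counts were tested with edgeR 4.0.16 and limma 3.58.1 in R 4.3.3: filterByExpr (10 counts, 15 in total), TMM, robust quasi-likelihood, and all 12 libraries in 1 model of the 4 groups (8 residual degrees of freedom). P-values were adjusted by Benjamini-Hochberg across 14549 genes, with calls below 0.05. The SE came from dividing a log2 fold change by the square root of its F; intervals are 95%. The steps were tested on simulated data. Coordinates and exon lengths come from GENCODE 29. Alternatives were DESeq2 1.42.0, RLE factors, no filter, CPM above 1 in 3 libraries, the compared groups alone, a replicate block, equal depth (4241863 counts), each library left out, and, added after seeing the data, offsets for the GC trend. The text names all 10 members, THRB, the 4 smallest p for T3 in TRB cells in each pathway list, and the 2 nearest patterns per member called. Other genes and markers were named after their values were seen. Members and lists were chosen with earlier results of these data known.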

Additional observations from a re-analysis of the deposited data

Results flagged for a closer look

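For 6 genes the test of the difference itself found unequal T3 effects in the 2 pools. The T3 effect in TRB cells minus that in EV cells was 1.17 for CSF1, 1.11 for TNFAIP2, 1.08 for BCL3, 0.87 for C3, 0.37 for BIRC3 and 0.33 for NFKB2 on the log2 scale (edgeR adjusted p up to 0.0107). For CSF1, TNFAIP2 and BCL3 both effects were positive. For C3, BIRC3 and NFKB2 the EV effect did not pass the test. The difference for BIRC3 lost its call at equal depth (edgeR adjusted p = 0.114) and that for NFKB2 by DESeq2 (DESeq2 adjusted p = 0.0745).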

How the results depend on the processing

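Every vehicle library was shallower than every T3 library, so T3 and depth move together. Of 750 values of the 10 genes under the alternatives, 702 kept direction and side of the threshold, 12 lost the call, 4 gained it and 32 changed sign, none of them called. For T3 in EV cells 660 genes were called, 381 at equal depth, 368 by DESeq2 and 275 to 669 with each library left out (275 and 396 on leaving out EV vehicle replicate 3 or 1, 341 on leaving out EV T3 replicate 2; the cause was not tested). For the pools with vehicle 2220 were called and 1430 by DESeq2 (673 higher, 757 lower). With a library left out, 6 to 7 of the 10 genes were called for T3 in TRB cells, 2 to 3 for T3 in EV cells, 4 to 5 between pools with vehicle, 5 to 6 with T3, and 6 for the difference. Deviations of same-numbered libraries had a median correlation of 0.021 over 18 pairs (-0.132 to 0.102). Pairs with other numbers reached 0.157, for EV T3 replicate 1 and TRB T3 replicate 3. These values cannot tell whether libraries shared a batch or culture. The fit with the replicate block called 6437 genes for T3 in TRB cells, 647 in EV cells, 2195 and 5898 between pools and 3493 for the difference. Of the 10 genes it called 6, 3, 5, 5 and 6.

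The values that changed sign were not called either way. At equal depth they were TNFAIP3 for T3 in TRB cells (0.32), CYLD (-0.01) and TLR3 (0.21) for T3 in EV cells, NFKBIA between pools with T3 (0.07), and NFKBIA (0.09), NFKBIB (-0.03), REL (0), C5 (0.18) and CSF3R (0.28) for the difference. With no filter C3 for T3 in EV cells was 0 and NFKB1 for the difference -0.01, and with the CPM filter the latter was 0. With the GC trend removed IL34 for T3 in EV cells was -0.02 and NFKBIA between pools with vehicle 0. With each library left out, T3 in EV cells gave -0.05 to 0.03 for C3, -0.32 to 0.95 for IL34, -0.08 to 0 for NFKB1, -0.07 to 0.02 for NFKB2, -0.09 to 0.11 for NFKBIA and -0.12 to 0 for TLR3. Between pools NFKB1 ranged from -0.02 to 0.05 with vehicle and -0.01 to 0.06 with T3, and NFKBIA from -0.08 to 0.12 and -0.07 to 0.01. The difference ranged from -0.04 to 0.05 for NFKB1, -0.09 to 0.18 for RELB, -0.14 to 0.06 for NFKBIA and -0.06 to 0.01 for REL. The difference for IL34 lost its call without EV vehicle replicate 3 (1.79, edgeR adjusted p = 0.324).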

Other observations

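Some genes next to the pathway were named after their values were seen. CD14, the co-receptor of bacterial lipopolysaccharide, which signals to NF-kB through Toll-like receptors, stood at 21.7, 19.5 and 17.5 CPM in TRB vehicle and 184, 194 and 181 CPM in TRB T3 libraries (log2 3.25, SE 0.0621, edgeR adjusted p = 1.25e-52). In EV cells it went from 30 ± 2.46 to 51.3 ± 1.35 CPM (SD, n = 3), a rise of 0.8, and with vehicle it was lower in TRB than in EV libraries (-0.59, edgeR adjusted p = 1.2e-06), the order of groups seen for BCL3 and TNFAIP2. The Toll-like receptor gene TLR4 had at most 2 counts in any library and was not tested. EDAR, the ectodysplasin receptor, rose with T3 in TRB cells from 3.7 ± 0.229 to 8.38 ± 0.166 CPM. TLR2, another Toll-like receptor, was near 1 CPM or below and passed the filter only through vehicle libraries. It fell in TRB cells by 1.63 on the log2 scale (edgeR adjusted p = 0.0127). That call was lost without TRB vehicle replicates 1 or 3 or TRB T3 replicate 3 and by DESeq2 (adjusted p 0.0544 to 0.073).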
